A study of Homo sapiens with 12 samples.

Results

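The 10 genes described here are targets of the estrogen receptor: GREB1, TFF1, TFF3, PDZK1, CXCL12, CA12, RET, SIAH2, STC2 and CTSD. They are a list given by name, out of 55765 genes in the count tables. All 10 were among the 17727 genes that passed the filter on low counts and were tested. RNA was sequenced from T47D, an established line of luminal breast cancer cells with estrogen and progesterone receptors. The 4 groups were siPRMT1 cells with R5020, siPRMT1 cells with ethanol, siCT cells with R5020 and siCT cells with ethanol, with 3 biological replicates each per the labels. siPRMT1 is an siRNA against PRMT1, a protein arginine methyltransferase, and siCT is a nonspecific siRNA. R5020 is a synthetic progestin, given at 10 nM for 6 h. Ethanol is its vehicle, given for the same 6 h per the treatment labels, though the titles call the ethanol samples T0. All groups are 1 cell line kept in medium with insulin and fetal bovine serum, and no estrogen is named among the treatments. The design asked whether genes can respond to progestin when PRMT1 is depleted.

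The estrogen receptor is a ligand-activated transcription factor that binds DNA at estrogen response elements and works with pioneer factors such as FOXA1 and GATA3 in luminal breast cells. The progesterone receptor is the product of one of its target genes, PGR, and many genes are bound by both receptors. The 10 genes include a growth regulator (GREB1), secreted proteins (TFF1, TFF3, CXCL12, STC2), a receptor tyrosine kinase (RET), enzymes (CA12, CTSD, SIAH2) and a scaffold protein (PDZK1).

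Total counts ranged from 26783525 to 34120937 per library. A pair of libraries stood apart. The share of counts from mitochondrially encoded genes was 52.4% in replicate 1 of siCT R5020 and 59.3% in replicate 3 of siCT ethanol. It lay between 31.3% and 38.3% in the remaining 10 libraries. MALAT1, a nuclear RNA, was at 948 CPM (counts scaled to library size, after TMM scaling) and 1519 CPM in that pair, against 250.7 to 486 CPM elsewhere. Within siCT R5020 cells, replicate 1 was above both other replicates in 9 of the 10 target genes and below both in 1, SIAH2. Within siCT ethanol cells, replicate 3 was above both others in 8, between them in PDZK1 and below both in SIAH2. The median coefficient of variation of the 10 genes was 3.56% in siPRMT1 R5020, 4.68% in siPRMT1 ethanol, 22.5% in siCT R5020 and 34.8% in siCT ethanol cells. The part of this pair in any result was not tested, and values without the pair are given beside the calls they change. Without the pair, each siCT group loses 1 of its 3 libraries. The siPRMT1 groups, with the lower spread, keep all 3. All 9 luminal epithelial markers passed the filter. KRT18 was at 1887 CPM or more in every library. With ethanol, KRT18 and KRT8 were called higher after siPRMT1, by 1.42 and 1.00 on the log2 scale. With R5020 they were called higher by 1.41 and 1.04. ESR1 and PGR were also called higher in both treatments. With ethanol, KRT19, EPCAM, CDH1, GATA3 and FOXA1 were not called (0.35, -0.36, -0.07, -0.15 and 0.21). With R5020, FOXA1 was called lower, and GATA3 averaged 456 CPM in siPRMT1 and 713 CPM in siCT cells. KRT19, EPCAM and CDH1 then averaged 2094, 72.0 and 998 CPM in siPRMT1 and 1827, 78.9 and 932 CPM in siCT cells. Of 6 basal or mesenchymal markers 3 passed, and their summed level was at most 2.71, 2.59, 2.00 and 3.86 CPM in siPRMT1 R5020, siPRMT1 ethanol, siCT R5020 and siCT ethanol cells. KRT5, a basal keratin, had 1.49, 0.911 and 0.788 CPM in siPRMT1 R5020 cells, 0.125 CPM or less in siCT R5020 cells and no count in the ethanol libraries, and was called for R5020 in siPRMT1 cells and for siPRMT1 with R5020. TP63 was called lower with R5020 in both cell groups. Of 8 fibroblast and endothelial markers 7 had levels and 2 passed. Their sum ran from 30.8 to 35.0 CPM in siPRMT1 R5020, 35.6 to 36.8 in siPRMT1 ethanol, 30.3 to 61.0 in siCT R5020 and 35.6 to 85.1 in siCT ethanol cells, highest in the pair. COL1A1 made up most of it (28.4 to 78.9 CPM), and LUM was called lower after siPRMT1 in ethanol (-1.60 ± 0.39, adjusted p = 0.0082) and in R5020 (-1.37 ± 0.43, adjusted p = 0.0334), while COL3A1 and DCN stood at 0.242 and 0.381 CPM or less. The 6 leukocyte markers, of which 1 passed, summed to 2.43 CPM or less, with PTPRC at 0.136 CPM or less. The part of these markers in the results was not tested. In bulk RNA, fewer cells that express a gene and less RNA per cell cannot be told apart.

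Promoter sequence was found for 7 of the 10 genes in the RefSeq promoter table (build GRCh38.p14), which holds 300 bases around each start site. GREB1, TFF1 and TFF3 had no entry. The full palindromic estrogen response element was in none of these promoters and in 0.057% of the 35114 promoters in the table, read on both strands. Its half-site, GGTCA on either strand, was in 5 of the 7 genes (PDZK1, CXCL12, CA12, CTSD and STC2). A gene can have more than 1 promoter in the table. By promoter, the half-site was in 6 of the 9 of these genes and in 37.4% of all promoters. The progestin and glucocorticoid half-site AGAACA was in 1 of the 7 genes, PDZK1. That was 2 of the 9 promoters, against 14.8% of all promoters. The full progestin response element was in none of the 7 genes and in 0.39% of all promoters. The 250 bases before the start site are printed for PDZK1 and CXCL12, the genes called lower with R5020 in siPRMT1 cells, and for CTSD, which held the most half-sites, 3, and was called in no comparison. Sequences run 5′ to 3′ along the gene, with estrogen half-sites in capitals.
PDZK1, chr1:145707401-145707650, minus strand: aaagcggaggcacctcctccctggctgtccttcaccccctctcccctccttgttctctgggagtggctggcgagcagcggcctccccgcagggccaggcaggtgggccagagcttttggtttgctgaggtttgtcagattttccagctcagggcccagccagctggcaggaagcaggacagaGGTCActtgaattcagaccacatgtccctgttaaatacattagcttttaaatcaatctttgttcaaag
CXCL12, chr10:44385098-44385347, minus strand: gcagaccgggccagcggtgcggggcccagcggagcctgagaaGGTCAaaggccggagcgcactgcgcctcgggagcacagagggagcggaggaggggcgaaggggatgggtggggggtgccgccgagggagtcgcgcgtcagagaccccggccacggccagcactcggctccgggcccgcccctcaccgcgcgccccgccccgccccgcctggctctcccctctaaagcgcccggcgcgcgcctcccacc
CTSD, chr11:1763928-1764177, minus strand: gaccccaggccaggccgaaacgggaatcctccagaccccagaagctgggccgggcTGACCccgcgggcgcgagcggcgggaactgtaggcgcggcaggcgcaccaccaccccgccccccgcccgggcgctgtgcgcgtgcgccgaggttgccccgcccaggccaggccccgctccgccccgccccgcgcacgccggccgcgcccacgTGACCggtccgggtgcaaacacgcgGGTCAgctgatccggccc

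Divided by the length of the merged exons (GENCODE 29), the mean level over all 12 libraries was highest for CTSD, at 280.0 CPM per kb, and lowest for RET, at 0.456 CPM per kb. Between them stood TFF3 (89.9 CPM per kb), CA12 (82.4 CPM per kb), SIAH2 (57.3 CPM per kb), STC2 (28.7 CPM per kb), GREB1 (16.9 CPM per kb), CXCL12 (15.1 CPM per kb), TFF1 (8.15 CPM per kb) and PDZK1 (2.79 CPM per kb). Neighbours in this order overlapped over the 12 libraries, except PDZK1 and RET, whose libraries ran from 1.40 to 4.54 and from 0.237 to 1.10 CPM per kb. The order differed between groups. TFF3 was at 55.4 and 53.8 CPM per kb in siPRMT1 R5020 and siPRMT1 ethanol cells, below CA12, and at 117 and 133 CPM per kb in siCT R5020 and siCT ethanol cells, above CA12. GREB1 was at 26.7 and 27.5 CPM per kb in the R5020 groups (siPRMT1 and siCT), above STC2, and at 8.19 and 5.33 CPM per kb in the ethanol groups, below it.

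**Figure D1:**
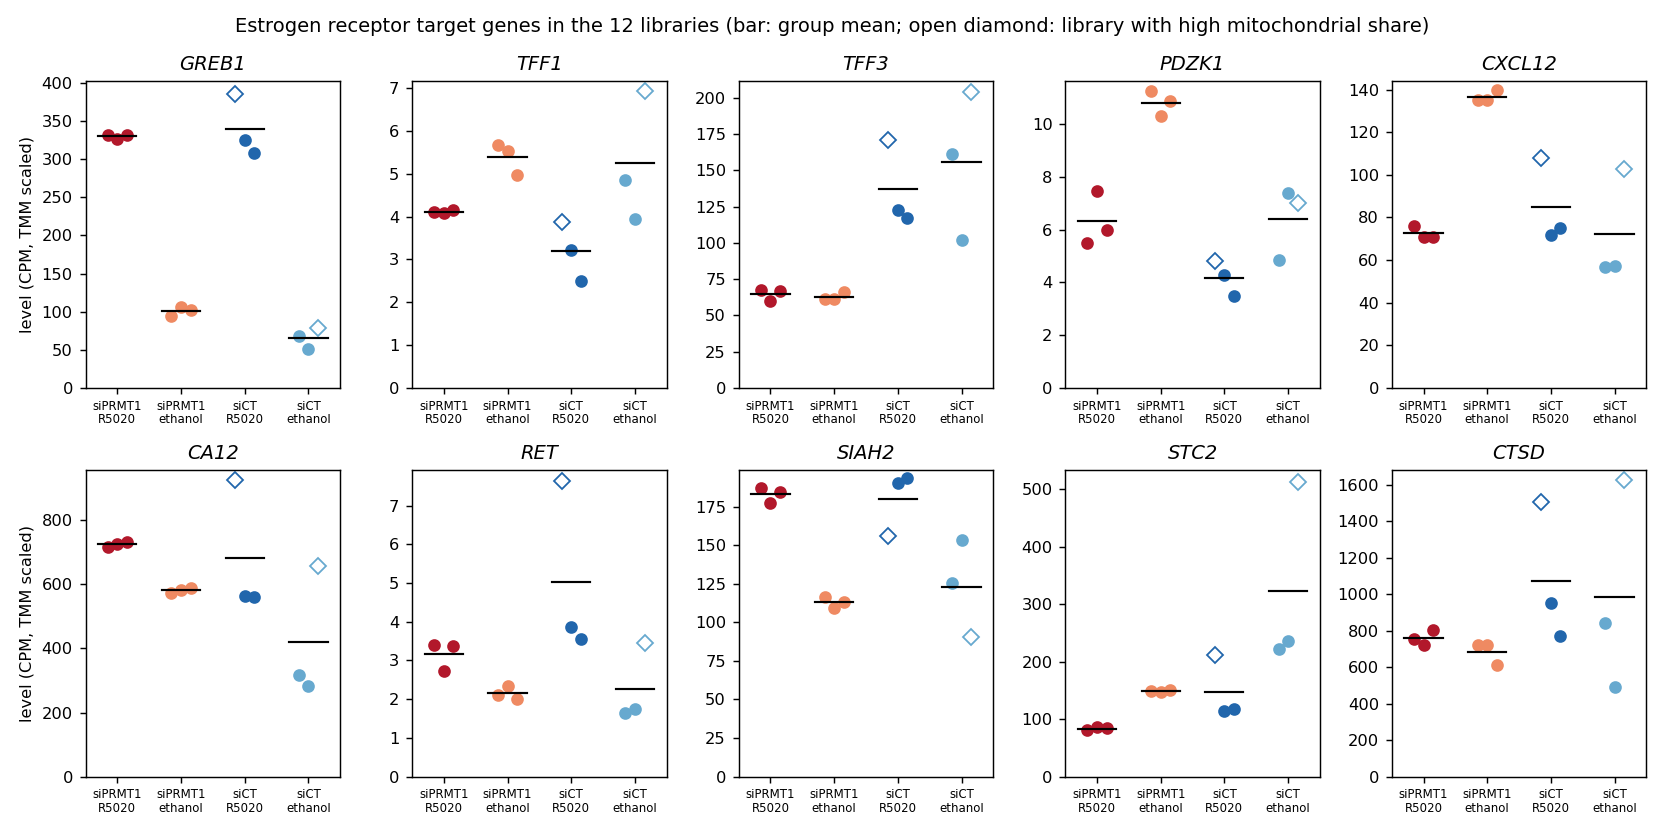
Level of each of the 10 genes (y axis, CPM after TMM scaling) in the 3 libraries of each group (x axis), with the group mean as a bar and the pair of libraries with a high mitochondrial share as open diamonds. GREB1 is high in both R5020 groups, at 308 CPM or more, and the siCT groups spread more than the siPRMT1 groups.

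The targeted gene was low in the siPRMT1 libraries. PRMT1 had 6.98, 6.89 and 7.37 CPM in siPRMT1 R5020 cells and 7.92, 8.38 and 8.38 CPM in siPRMT1 ethanol cells, against 40.7, 50.7 and 37.5 CPM in siCT R5020 cells and 45.4, 37.4 and 29.7 CPM in siCT ethanol cells. The estrogen receptor's own gene, ESR1, had 66.3, 67.6 and 65.2 CPM in siPRMT1 R5020 cells and 179, 172 and 176 CPM in siPRMT1 ethanol cells, against 45.3, 43.9 and 49.5 CPM in siCT R5020 cells and 72.7, 85.2 and 75.6 CPM in siCT ethanol cells. ESR1 thus fell with R5020 in both cell groups, by 1.40 ± 0.13 on the log2 scale in siPRMT1 cells (SE, adjusted p = 5.0e-06) and by 0.75 ± 0.13 in siCT cells (adjusted p = 0.0010). It was higher after siPRMT1 in ethanol (log2 change 1.17 ± 0.13, adjusted p = 5.8e-05) and in R5020 (0.52 ± 0.13, adjusted p = 0.0098).

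In siPRMT1 cells, R5020 raised GREB1 and SIAH2 and lowered PDZK1 and CXCL12. These 4 of the 10 genes, 2 in each direction, were called at an adjusted p under 0.05, where 15.4% of all genes tested were called (9.30% higher and 6.08% lower). The libraries did not overlap between R5020 and ethanol in 8 of the 10 genes, against 53.1% of all genes. GREB1, a hormone-induced growth regulator, had 332, 327 and 332 CPM with R5020, against 94.8, 106 and 103 CPM with ethanol. It was 3.26-fold higher (log2 change 1.71 ± 0.18, adjusted p = 1.5e-05), with every R5020 library above every ethanol library. SIAH2, a ubiquitin ligase, had 187, 178 and 185 CPM with R5020 and 117, 109 and 114 CPM with ethanol. It was 1.62-fold higher (0.69 ± 0.18, adjusted p = 0.0173). CXCL12, a chemokine that signals through CXCR4, had 76.1, 70.7 and 70.9 CPM with R5020 and 135, 135 and 139.9 CPM with ethanol. The groups did not overlap, and CXCL12 was 1.88-fold lower (-0.91 ± 0.22, adjusted p = 0.0131). PDZK1, a scaffold for membrane transporters, had 5.49, 7.47 and 5.99 CPM with R5020 and 11.2, 10.3 and 10.9 CPM with ethanol. It was 1.71-fold lower (-0.78 ± 0.19, adjusted p = 0.0132). The calls of SIAH2, PDZK1 and CXCL12 were lost without certain libraries. SIAH2 was not called without any 1 of siPRMT1 ethanol replicates 1, 2 and 3 (adjusted p = 0.0583, 0.0770 and 0.0669) or siPRMT1 R5020 replicates 1 and 3 (0.0642 and 0.0607), nor with library totals alone (log2 change 0.52, adjusted p = 0.409). PDZK1 was not called without siPRMT1 ethanol replicate 1 (0.0560) or siPRMT1 R5020 replicate 1 or 3 (0.0749 and 0.0652), nor CXCL12 without siPRMT1 R5020 replicate 2 or 3 (0.0565 and 0.0579).

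The other 6 genes did not pass the test in siPRMT1 cells. STC2, a secreted glycoprotein hormone, had 80.6, 85.5 and 83.7 CPM with R5020 and 148, 148 and 151 CPM with ethanol. The groups did not overlap, and its log2 change was -0.84 ± 0.30 (adjusted p = 0.0853). CA12, a membrane carbonic anhydrase, had 715, 726 and 733 CPM with R5020 and 572, 584 and 587 CPM with ethanol (log2 change 0.32 ± 0.29, adjusted p = 0.581). RET had 3.39, 2.73 and 3.37 CPM with R5020 and 2.10, 2.34 and 2.01 CPM with ethanol (0.56 ± 0.32, adjusted p = 0.323). TFF1, a small secreted trefoil peptide, had 4.10, 4.08 and 4.16 CPM with R5020 and 5.68, 5.54 and 4.98 CPM with ethanol (-0.39 ± 0.21, adjusted p = 0.287). In these 3 genes too every R5020 library lay on one side of the ethanol libraries. TFF3, another trefoil peptide, had 67.8, 59.7 and 66.5 CPM with R5020 and 61.0, 61.1 and 66.4 CPM with ethanol. CTSD, the lysosomal protease cathepsin D, had 751, 719 and 803 CPM with R5020 and 719, 719 and 612 CPM with ethanol. Both overlapped between the groups. The test uses 1 spread for all groups. Without the pair of libraries with a high mitochondrial share, STC2 (-0.85, adjusted p = 1.3e-06), CA12 (0.31, adjusted p = 0.0021), RET (0.55, adjusted p = 0.0106) and TFF1 (-0.40, adjusted p = 0.0399) were called as well, 8 of the 10 genes where 29.1% of all genes were called.

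In siCT cells, GREB1 and RET were called higher with R5020, and STC2 and TFF1 lower. These are 4 of the 10 genes, 2 in each direction, where 13.0% of all genes were called (7.59% higher and 5.43% lower). The test shares 1 spread with the siPRMT1 libraries, which varied less. With only the siCT libraries, 1 of the 10 genes was called, GREB1 (adjusted p = 0.0014), where 5.29% of all genes were called. The libraries did not overlap in 6 of the 10 genes, against 20.8% of all genes. GREB1 had 386, 325 and 308 CPM with R5020, against 68.3, 50.6 and 78.5 CPM with ethanol. It was 5.16-fold higher (log2 change 2.37 ± 0.18, adjusted p = 1.3e-06). RET, the receptor of the GDNF family of ligands, had 7.63, 3.86 and 3.56 CPM with R5020 and 1.64, 1.74 and 3.44 CPM with ethanol. It was 2.26-fold higher (1.18 ± 0.32, adjusted p = 0.0280), and the highest library of each group was the one with a high mitochondrial share. RET was called in 16 of 21 alternative analyses. Its log2 change was 0.77 without siCT R5020 replicate 1 (adjusted p = 0.0851), and the call was also lost without siCT ethanol replicate 1 or 2 (0.0850 and 0.0881), with only the groups compared (0.191) and with the replicate block (0.0517). STC2 had 211, 114 and 118 CPM with R5020 and 222, 236 and 513 CPM with ethanol. It was 2.19-fold lower (-1.13 ± 0.30, adjusted p = 0.0249) with no overlap, and was called in 16 of 21. Its log2 change was -0.60 without siCT ethanol replicate 3 (adjusted p = 0.0785), and the call was also lost without siCT R5020 replicate 2 or 3 (0.118 and 0.111), with only the groups compared (0.211) and with the replicate block (0.0501). TFF1 had 3.88, 3.23 and 2.50 CPM with R5020 and 4.85, 3.95 and 6.94 CPM with ethanol. It was 1.63-fold lower at an adjusted p of 0.0499, just under the threshold, and was called in 6 of 21 alternative analyses. With only the groups compared, the adjusted p of TFF1 was 0.326.

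PDZK1 had 4.80, 4.27 and 3.47 CPM with R5020 and 4.85, 7.37 and 7.00 CPM with ethanol in siCT cells (-0.61 ± 0.20, adjusted p = 0.0592). SIAH2 had 156, 190.4 and 194 CPM with R5020 and 125, 153 and 90.8 CPM with ethanol (0.55 ± 0.18, adjusted p = 0.0644). Neither gene overlapped between the groups. CXCL12 had 108, 72.0 and 75.2 CPM with R5020 and 56.9, 57.2 and 103 CPM with ethanol, with an overlap (0.24 ± 0.22, adjusted p = 0.591). CA12 had 926, 564 and 562 CPM with R5020 and 318, 284 and 658 CPM with ethanol. The overlap was made by siCT ethanol replicate 3 (0.70 ± 0.29, adjusted p = 0.145). TFF3 had 171, 123 and 117 CPM with R5020 and 161, 102 and 204 CPM with ethanol. CTSD had 1504, 949 and 769 CPM with R5020 and 841, 491 and 1625 CPM with ethanol. For both, the groups overlapped and no change was called. Without the pair, 7 of the 10 genes were called, where 19.9% of all genes were called. The added genes were CA12 (log2 change 0.90 ± 0.07, adjusted p = 5.0e-06), CXCL12 (0.36 ± 0.08, adjusted p = 0.0090) and SIAH2 (0.45 ± 0.10, adjusted p = 0.0072).

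**Figure D2:**
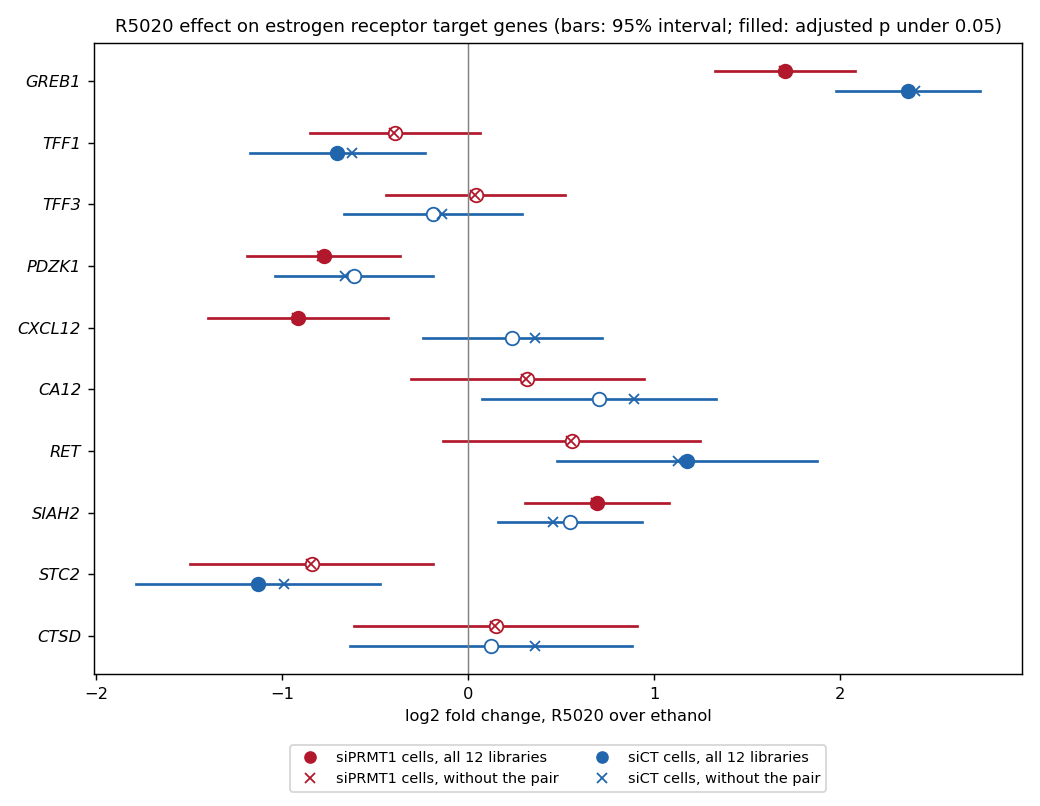
Log2 fold change of R5020 over ethanol (x axis) for each gene in siPRMT1 cells (red) and siCT cells (blue), with 95% intervals as bars. Circles use all 12 libraries and are filled where the adjusted p is under 0.05, and crosses leave out the pair with a high mitochondrial share. GREB1 lies furthest to the right, at 1.71 in siPRMT1 cells and 2.37 in siCT cells.

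With ethanol, siPRMT1 cells had more GREB1, PDZK1 and CXCL12 and less TFF3 and STC2 than siCT cells. These 5 of the 10 genes were called, 3 higher and 2 lower, where 32.8% of all genes were called (13.6% higher and 19.2% lower). The libraries did not overlap in the same 5 genes, against 44.7% of all genes. GREB1 averaged 101 ± 5.9 CPM in siPRMT1 cells and 65.8 ± 14.1 CPM in siCT cells (SD, n = 3 each), a 1.54-fold higher level (log2 change 0.62 ± 0.17, adjusted p = 0.0155). PDZK1 averaged 10.8 ± 0.48 CPM in siPRMT1 cells and 6.41 ± 1.36 CPM in siCT cells, 1.69-fold higher (0.76 ± 0.19, adjusted p = 0.0101). CXCL12 averaged 137 ± 2.7 CPM in siPRMT1 cells and 72.3 ± 26.4 CPM in siCT cells, 1.89-fold higher (0.92 ± 0.22, adjusted p = 0.0085). TFF3 averaged 62.9 ± 3.1 CPM in siPRMT1 cells and 156 ± 51.5 CPM in siCT cells, 2.48-fold lower (-1.31 ± 0.23, adjusted p = 0.0013). STC2 averaged 149 ± 2.0 CPM in siPRMT1 cells and 323 ± 164 CPM in siCT cells, 2.17-fold lower (-1.12 ± 0.30, adjusted p = 0.0145). Without the pair, 7 of the 10 genes were called, where 44.5% of all genes were called. The log2 change of STC2 was then -0.61 ± 0.07 (adjusted p = 6.1e-05), and the added calls were CA12 (0.96 ± 0.07, adjusted p = 2.8e-06) and SIAH2 (-0.29 ± 0.09, adjusted p = 0.0229). Without siCT ethanol replicate 3 alone STC2 was at -0.56 and not called (adjusted p = 0.0594), and GREB1 was not called without siPRMT1 ethanol replicate 2 or 3 (0.0599 and 0.0544) or with only the groups compared (0.0629). With all 12 libraries, CA12 averaged 581 ± 7.7 CPM in siPRMT1 cells and 420.1 ± 207 CPM in siCT cells (0.47 ± 0.29, adjusted p = 0.230). The log2 changes of the remaining uncalled genes were 0.06 ± 0.21 for TFF1, -0.03 ± 0.33 for RET, -0.12 ± 0.18 for SIAH2 and -0.53 ± 0.35 for CTSD (adjusted p = 0.860, 0.952, 0.619 and 0.266).

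With R5020, siPRMT1 cells had less TFF3 and more PDZK1 than siCT cells. The 2 called genes, 1 in each direction, compare with 25.7% of all genes called (11.5% higher and 14.2% lower), a share close to that of the 10. The libraries did not overlap in 5 of the 10 genes, against 51.5% of all genes. TFF3 averaged 64.7 ± 4.3 CPM in siPRMT1 cells and 137 ± 29.5 CPM in siCT cells, 2.12-fold lower (-1.08 ± 0.22, adjusted p = 0.0045). PDZK1 averaged 6.32 ± 1.03 CPM in siPRMT1 cells and 4.18 ± 0.67 CPM in siCT cells, 1.51-fold higher (0.60 ± 0.20, adjusted p = 0.0406), a call made in 11 of 21 alternative analyses. PDZK1 was at 0.46 without siPRMT1 R5020 replicate 2 (adjusted p = 0.169), and its call was lost without any 1 siPRMT1 library or without siCT R5020 replicate 2 or 3. GREB1 averaged 330.2 ± 2.8 CPM in siPRMT1 cells and 339.5 ± 40.8 CPM in siCT cells, a log2 difference of -0.04 with a 95% interval of -0.41 to 0.33. STC2 averaged 83.3 ± 2.4 CPM in siPRMT1 cells and 148 ± 54.9 CPM in siCT cells, without overlap and without a call (-0.83 ± 0.30, adjusted p = 0.0604). RET (-0.65 ± 0.31, adjusted p = 0.139) and TFF1 (0.37 ± 0.22, adjusted p = 0.229) also did not overlap and were not called. The log2 changes of CXCL12, CA12, SIAH2 and CTSD were -0.23 ± 0.22, 0.08 ± 0.29, 0.02 ± 0.18 and -0.50 ± 0.35 (adjusted p = 0.472, 0.852, 0.931 and 0.310). Without the pair, 5 of the 10 genes were called, where 38.9% of all genes were called. The added genes were STC2 (-0.47 ± 0.07, adjusted p = 0.00046), CA12 (0.38 ± 0.07, adjusted p = 0.0014) and TFF1 (0.53 ± 0.16, adjusted p = 0.0197), and RET was at -0.21 ± 0.15.

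**Figure D3:**
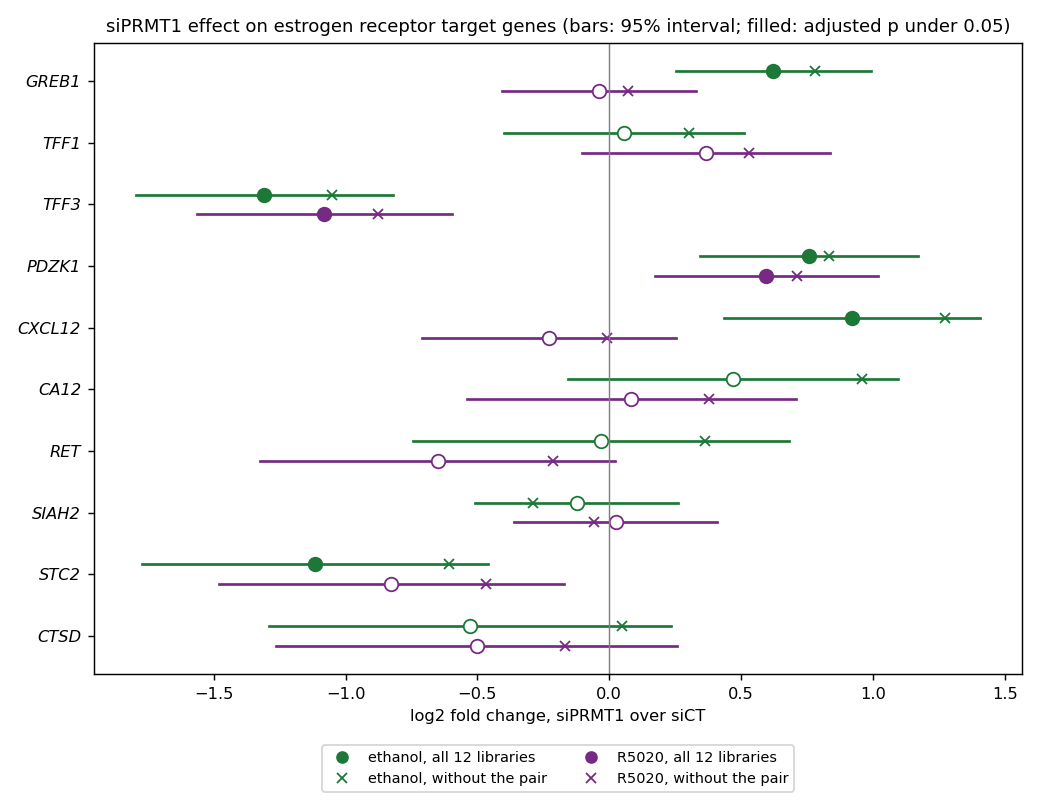
Log2 fold change of siPRMT1 over siCT (x axis) for each gene with ethanol (green) and with R5020 (purple), with 95% intervals as bars. Circles use all 12 libraries and are filled where the adjusted p is under 0.05, and crosses leave out the pair with a high mitochondrial share. TFF3 is lower and PDZK1 higher after siPRMT1 in both treatments.

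The R5020 effect was set against itself in siPRMT1 and siCT cells by an interaction term. No gene of the 10 was called by edgeR, where 0.0790% of all genes were called (0.0451% higher and 0.0338% lower), and 2 of the 10 had an unadjusted p under 0.05. CXCL12 was one: R5020 gave a log2 change of -0.91 in siPRMT1 cells and 0.24 in siCT cells, a difference of -1.15 ± 0.32 (unadjusted p = 0.0030, adjusted p = 0.455). GREB1 was the other, with a difference of -0.66 ± 0.24 (unadjusted p = 0.0167, adjusted p = 0.856). Its level in siPRMT1 cells was 1.54-fold higher with ethanol, and with R5020 its groups overlapped. The other 8 had an adjusted p of 1.00, with differences of 0.31 ± 0.30 for TFF1, 0.23 ± 0.31 for TFF3, -0.16 ± 0.27 for PDZK1, -0.38 ± 0.41 for CA12, -0.62 ± 0.45 for RET, 0.15 ± 0.25 for SIAH2, 0.29 ± 0.43 for STC2 and 0.03 ± 0.50 for CTSD. Without the pair, CXCL12 (-1.28 ± 0.11, adjusted p = 0.00047) and CA12 (-0.58 ± 0.10, adjusted p = 0.0181) were called, where 0.779% of all genes were called. DESeq2 on all 12 libraries called 0 of the 10.

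**Figure D4:**
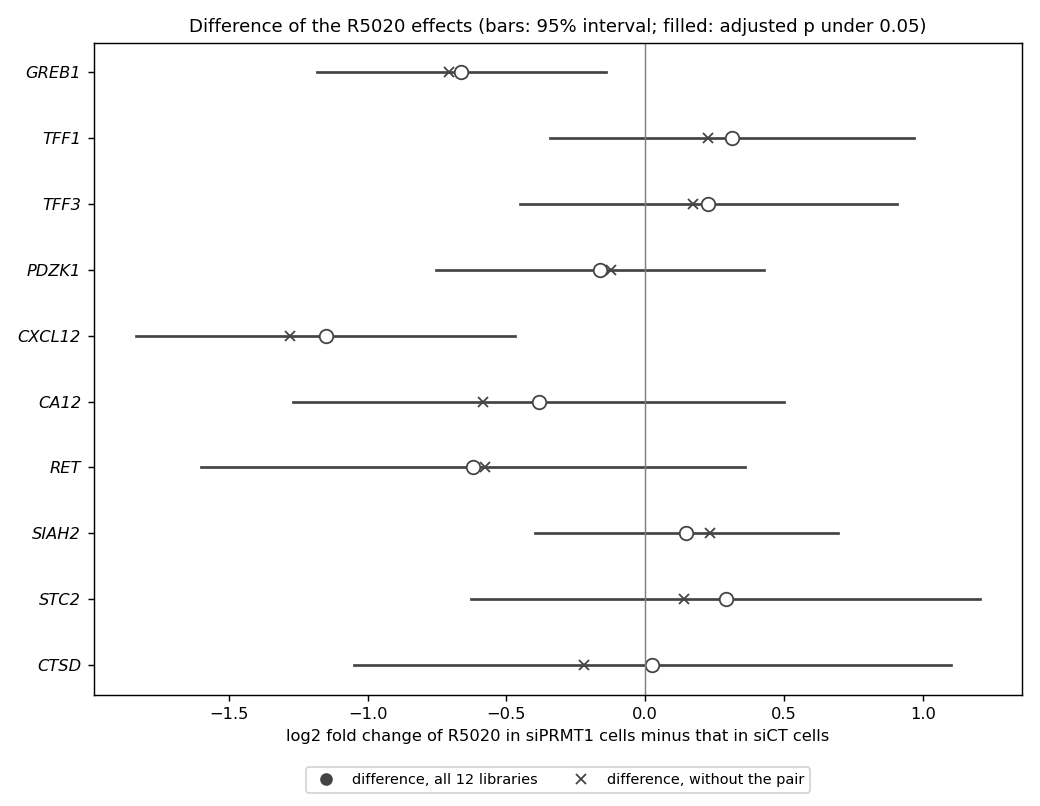
Difference of the R5020 effect on the log2 scale, siPRMT1 minus siCT (x axis), for each gene, with 95% intervals as bars. Circles use all 12 libraries and crosses leave out the pair with a high mitochondrial share. No circle is filled, since no adjusted p is under 0.05, and the intervals of CXCL12 and GREB1 lie below 0.

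A list of 42 other estrogen-responsive genes, of which 40 were tested, moved in both directions. R5020 raised 7 and lowered 12 in siPRMT1 cells, and raised 7 and lowered 8 in siCT cells, that is 19 and 15 of the 40, where 15.4% and 13.0% of all genes were called. Its median log2 change was -0.19 in siPRMT1 cells and -0.10 in siCT cells, against 0.00 and -0.04 over all genes. CCND1, cyclin D1, rose by 1.59 ± 0.16 on the log2 scale in siPRMT1 cells and by 1.59 ± 0.17 in siCT cells. PGR, the progesterone receptor gene, fell by 2.04 ± 0.20 in siPRMT1 cells and by 1.61 ± 0.20 in siCT cells. MYB, a transcription factor, fell by 2.72 ± 0.15 in siPRMT1 cells and by 0.98 ± 0.15 in siCT cells. It was the 1 gene of the list called in the interaction (-1.73 ± 0.21, adjusted p = 0.0203). That call was lost with the replicate block, without siCT R5020 replicate 2 or 3 and without any 1 siPRMT1 library. No gene at all was called in the interaction under those settings. RAPGEFL1 rose by 2.07 ± 0.22 in siPRMT1 cells and by 1.58 ± 0.22 in siCT cells. After siPRMT1, 14 were higher and 7 lower with ethanol, and 10 were higher and 7 lower with R5020, where 32.8% and 25.7% of all genes were called. MYB was higher in ethanol (log2 change 1.68 ± 0.14), and IRS1 and IGFBP4, of the insulin and IGF pathway, were lower in R5020 (-1.46 ± 0.16 and -1.43 ± 0.19). ELOVL2, a fatty acid elongase, averaged 28.0 CPM in siPRMT1 cells and 5.73 CPM in siCT cells with ethanol, and was also higher in R5020 (log2 change 1.72 ± 0.23), and KCNK6, a potassium channel, was lower in both (-1.68 ± 0.23 and -1.77 ± 0.23).

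Of 18 genes for the estrogen receptor and its cofactors, 16 were tested. ESR1 and NRIP1 are also in the list of other estrogen-responsive genes and count in both. R5020 lowered 5 and raised 0 in siPRMT1 cells, and lowered 2 and raised 0 in siCT cells, where 15.4% and 13.0% of all genes were called, so that the siCT count was near that share. FOXA1, the pioneer factor, fell by 1.94 ± 0.19 on the log2 scale in siPRMT1 cells and by 1.17 ± 0.18 in siCT cells. GATA3 and TFAP2C, other transcription factors of luminal cells, fell by 0.92 ± 0.22 and 0.88 ± 0.13 in siPRMT1 cells. After siPRMT1, 6 were higher and 3 lower with ethanol, and 2 were higher and 3 lower with R5020, PRMT1 itself among the lower ones. With R5020 that count was near the 25.7% of all genes called, and with ethanol 32.8% were called. TFAP2C and the coactivator NCOA3 were higher in ethanol (0.92 ± 0.13 and 0.88 ± 0.16), and in R5020 the coactivator NCOA2 was higher (0.66 ± 0.16) and FOXA1 lower (-0.56 ± 0.18).

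**Figure D5:**
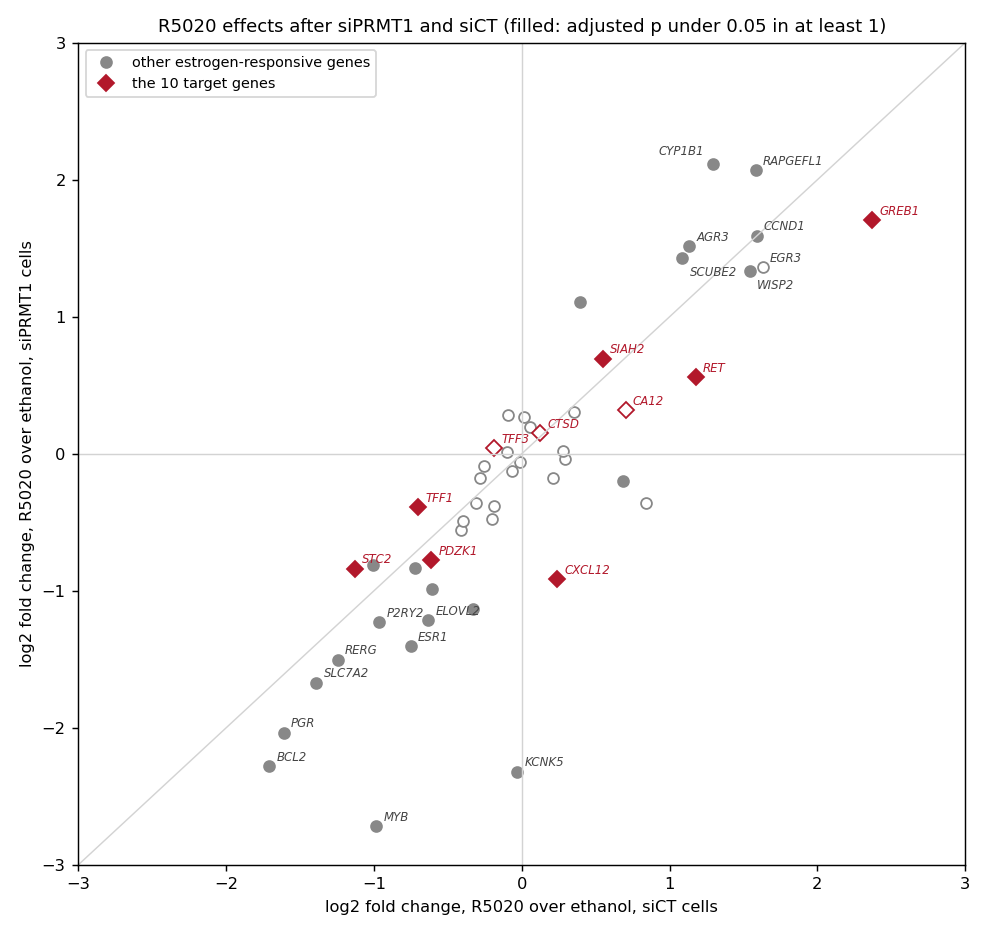
Log2 fold change of R5020 over ethanol in siCT cells (x axis) and in siPRMT1 cells (y axis) for the 10 genes (red diamonds) and 40 other estrogen-responsive genes (grey circles), filled where the adjusted p is under 0.05 in at least 1 of the cell groups. Both axes share the ethanol-to-R5020 contrast but no libraries, and CXCL12 lies in the lower right, at 0.24 and -0.91.

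Among 13 tested relatives, partners and neighbours of the 10 genes, GREB1L, a paralogue of GREB1, was called higher in all 4 comparisons of groups. Of the 13, 5 were called for R5020 in siPRMT1 cells and 3 in siCT cells, and after siPRMT1 8 with ethanol and 6 with R5020, where 15.4%, 13.0%, 32.8% and 25.7% of all genes were called. Its log2 change with R5020 was 0.58 ± 0.15 in siPRMT1 cells and 1.60 ± 0.17 in siCT cells, and after siPRMT1 it was 2.31 ± 0.17 with ethanol and 1.29 ± 0.16 with R5020. CXCR4, the CXCL12 receptor, fell with R5020 in siPRMT1 cells (-1.52 ± 0.31, adjusted p = 0.0041). ACKR3, another receptor of CXCL12, was lower after siPRMT1 with ethanol (-2.69 ± 0.36) and with R5020 (-1.72 ± 0.35). STC1, the paralogue of STC2, fell with R5020 in siPRMT1 cells (-1.47 ± 0.30, adjusted p = 0.0039). SLC9A3R1, a scaffold related to PDZK1, was higher after siPRMT1 with ethanol (1.45 ± 0.24) and with R5020 (1.03 ± 0.24). NRTN, neurturin, a GDNF-family ligand that signals through RET, had 0.517, 0.656 and 0.410 CPM with R5020 and 0.027, 0.027 and 0.054 CPM with ethanol in siPRMT1 cells, and was called higher (adjusted p = 8.1e-05). These ethanol libraries held so few counts that no fold is given. NRTN was also called higher with R5020 in siCT cells (adjusted p = 0.0411). It had 0.404, 0.414 and 0.375 CPM with R5020 and 0.218, 0.088 and 0.164 CPM with ethanol there. The siCT ethanol libraries held 14 NRTN counts in all, so no fold is given for them either. SIAH1, the paralogue of SIAH2, was higher with R5020 in siPRMT1 cells (0.55 ± 0.14). TMPRSS3 was lower with R5020 in siCT cells (-0.98 ± 0.27) and after siPRMT1 with ethanol (-1.28 ± 0.27), and IFITM10 was lower after siPRMT1 with R5020 (-1.63 ± 0.28). The pseudogenes PDZK1P1 and PDZK1P2 did not pass the filter on low counts. How reads shared with PDZK1 were counted is not given in the sources used here.

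Over the 12 libraries, which share their 4 groups and the pair with a high mitochondrial share, the gene most like GREB1 was PXMP4 (Pearson r of log2 CPM 0.995, among 10134 genes). The nearest were GGT7 for TFF3 (0.995), CSF2RA for STC2 (0.989), S100A10 for SIAH2 (0.989), B3GAT3 for CTSD (0.985) and OLFML3 for CA12 (0.983). They were ZNF175 for PDZK1 (0.978), ADAMTS15 for RET (0.978) and BHLHE40 for CXCL12 (0.912).

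The authors' deposited table gives its own log2 fold changes and adjusted p-values, and 39 of its 40 values for these genes had the sign found here. Both come from the same series, so this is not an independent check. In siCT cells the authors' deposited table puts 1 of the 10 genes, GREB1, under an adjusted p of 0.05 for R5020, where it puts 6.61% of all genes there. In siPRMT1 cells the authors' deposited table puts 8 there, where it has 33.6% of all genes. For siPRMT1 against siCT, the authors' deposited table has 5 of the 10 genes under that limit with ethanol (19.8% of all genes) and 3 with R5020 (30.7%).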

How the data were processed

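The authors deposited whole-number counts of reads per gene for each of 12 libraries, with no normalization, and a table of their own log2 fold changes and adjusted p-values, per the file headers. The build hg19 and the tools HTSeq 0.9.1, Bowtie2 2.3.2.2 and DESeq2 were used, per the submitters' processing notes. Roles, annotation and strand setting were not given in the sources used here, so reads of overlapping or antisense genes cannot be told apart. Libraries were grouped by their siRNA and treatment labels.

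Counts were filtered with filterByExpr, scaled by TMM and fitted with 1 mean per group over all 12 libraries in edgeR 4.0.16 (R 4.3.3). Each comparison used the quasi-likelihood test with Benjamini-Hochberg adjustment over 17727 genes, called at an adjusted p under 0.05. Errors of log2 changes are SE and those of levels SD. The procedure was tested on counts simulated with the same spread in every group. That test cannot show how the calls fare under the unequal spread of these groups. Alternatives used limma 3.58.1 and DESeq2 1.42.0 among others. All 10 genes are named in every comparison, with PRMT1, ESR1, PGR and up to 4 called genes with the smallest adjusted p per list and comparison, and the gene most like each; 1 result is not reported here. The genes and lists were chosen with earlier results of these data known. Replicate numbers were not used as pairs in this fit, and 1 of 12 same-number correlations was over 0.1. P-values rest on 1 spread shared by all 4 groups, between libraries that are biological replicates per the labels. Estimated within each group over the genes tested, the biological coefficient of variation was 0.075 in siPRMT1 R5020 and 0.046 in siPRMT1 ethanol cells. It was 0.213 in siCT R5020 and 0.326 in siCT ethanol cells. A p-value thus does not measure the spread of the groups compared alone. Lengths and promoters come from GRCh38 annotation, and no coordinate of the hg19 tables was used.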

Additional observations from a re-analysis of the deposited data

How the results depend on the processing

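Each comparison of groups was repeated under 21 alternatives and the interaction under 20. GREB1 with R5020 in both cell groups, TFF3 after siPRMT1 in both treatments, and PDZK1 and CXCL12 after siPRMT1 with ethanol were called in 21 of 21. STC2 after siPRMT1 with ethanol was called in 20, CXCL12 with R5020 in siPRMT1 cells in 19, GREB1 after siPRMT1 with ethanol and PDZK1 with R5020 in siPRMT1 cells in 18, RET and STC2 with R5020 in siCT cells in 16, and SIAH2 with R5020 in siPRMT1 cells in 15. Of 1040 values of single genes, 896 kept direction and call, 55 gained a call, 50 lost it and 39 changed sign, none of them called with all libraries.

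For R5020 in siPRMT1 cells, 8 of the 10 genes were called with limma voom and quality weights, with only the libraries of the groups compared, and without the pair with a high mitochondrial share, and 1 to 5 when a replicate was left out, against 4. Of all genes, voom called 46.1% and the fit of the groups compared 46.6%, against 15.4%. The count was 1 without siPRMT1 R5020 replicate 3 and 2 without replicate 1 of siPRMT1 R5020 or of siPRMT1 ethanol. For R5020 in siCT cells, 1 was called with only the groups compared (5.29% of all genes), 7 without the pair, and 2 to 5 with a replicate left out, with 2 without siCT R5020 replicate 2 or 3. For siPRMT1 with R5020, 5 were called with voom (55.7% of all genes) and 5 without the pair, and 1 to 3 with a replicate left out, with 1 without siCT R5020 replicate 2 or 3 or any siPRMT1 library. For siPRMT1 with ethanol the range was 4 to 6. In the interaction, 1 was called with voom (0.367% of all genes), 2 without the pair, and 0 to 1 with a replicate left out, CXCL12 without siCT ethanol replicate 3. The cause was not tested.

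With the replicate number as a block, 1 gene was called for R5020 among siCT cells and 1 for siPRMT1 with R5020, with 10.7% and 21.7% of all genes. The same-number correlations ran from -0.67 to 0.28. Both limits came from siCT cells, where the pair with a high mitochondrial share carries different numbers (r = 0.81 between them). These values thus cannot decide whether the numbers pair the samples.

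Over all genes, library totals alone moved the median log2 change in siPRMT1 cells to -0.18 for R5020 and called 897 higher and 1167 lower there, 3021 for siPRMT1 with ethanol (median 0.11), 2429 for siPRMT1 with R5020 (744 higher, 1685 lower) and 3 in the interaction. With only the groups compared, 898 (637 higher, 261 lower), 7813 and 3324 genes were called for R5020 in siCT cells, R5020 in siPRMT1 cells and siPRMT1 in ethanol. Voom called 8179 for R5020 in siPRMT1 cells, 9866 for siPRMT1 with R5020 and 65 in the interaction. Without the pair, 5226, 3568, 6992 and 140 were called for R5020 in siPRMT1 cells, R5020 in siCT cells, siPRMT1 with R5020 and the interaction. In the interaction, no filter gave 29, DESeq2 86 and the block 0 genes. With a replicate left out, 1831 to 3820 genes (10.1% to 21.1%) were called for R5020 in siPRMT1 cells, 1550 to 3029 (8.57% to 16.8%) for R5020 in siCT cells, 3487 to 7827 (19.3% to 43.4%) for siPRMT1 with ethanol, 2332 to 6768 (12.9% to 37.5%) for siPRMT1 with R5020 and 0 to 32 in the interaction. For siPRMT1 with ethanol it was 3655, 3775 and 3487 without siPRMT1 ethanol replicate 1, 2 and 3. For siPRMT1 with R5020 it was 2892, 2332 and 2654 without siPRMT1 R5020 replicate 1, 2 and 3. In the interaction it was 32 without siCT ethanol replicate 3, 6 without siCT ethanol replicate 1, 4 without siCT R5020 replicate 1 and 0 without siCT R5020 replicate 2 or 3 or any siPRMT1 library.

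Signs changed as follows. With library totals alone, CTSD had -0.22 in the interaction and -0.023 for R5020 in siPRMT1 cells, TFF3 -0.13 for R5020 in siPRMT1 cells, GREB1 0.019 for siPRMT1 with R5020, and RET 0.24 and SIAH2 0.00027 for siPRMT1 with ethanol. With no filter, CTSD had -0.0022 in the interaction and RET 0.012 for siPRMT1 with ethanol. With voom, CTSD had -0.032 in the interaction, GREB1 0.046 and SIAH2 -0.053 for siPRMT1 with R5020, and RET 0.27 for siPRMT1 with ethanol. With the replicate block, CTSD had -0.041 in the interaction. Without the pair, CTSD had -0.22 in the interaction and 0.050 for siPRMT1 with ethanol, GREB1 0.073 and SIAH2 -0.057 for siPRMT1 with R5020, and RET 0.36 for siPRMT1 with ethanol.

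With a replicate left out, the interaction ran from -0.61 to 0.35 for CTSD, -0.30 to 0.0077 for PDZK1, -0.038 to 0.26 for SIAH2, -0.28 to 0.63 for STC2 and -0.087 to 0.46 for TFF3. R5020 in siCT cells ran from -0.19 to 0.73 for CTSD and -0.41 to 0.092 for TFF3. siPRMT1 with ethanol ran from -0.85 to 0.10 for CTSD, -0.23 to 0.41 for RET, -0.24 to 0.060 for SIAH2 and -0.12 to 0.35 for TFF1. siPRMT1 with R5020 ran from -0.040 to 0.37 for CA12, -0.11 to 0.062 for GREB1 and -0.067 to 0.081 for SIAH2.

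Only 3 libraries per group, fewer in the siCT groups without the pair, and the spread of the siCT groups limit which changes can be called. Counts carry no molecular identifiers.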
